A study of Sus scrofa with 20 samples.

Results

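The genes described here are hepcidin (HAMP), the iron genes TFRC, FTH1 and FECH, and the acute phase genes HP, CRP, ITIH4, LBP and ORM1, which were followed in liver and testis of boars with high or low androstenone. HAMP was chosen by its measured values, since it was picked for its high counts in livers of the high androstenone group. Its liver levels are therefore given as a description without a test. Of the 9 genes, 7 had a reference ID among the 21755 IDs counted, and LBP and ORM1 were not analysed here. The 7 IDs were NM_214117.1 (HAMP), NM_214001.1 (TFRC), NM_213975.1 (FTH1), NM_001170523.1 (FECH), NM_214000.1 (HP), NM_213844.2 (CRP) and NM_001001537.1 (ITIH4).

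Hepcidin is a peptide hormone made by hepatocytes that lowers the release of iron into blood by acting on the iron exporter ferroportin. Its gene is switched on by iron loading through bone morphogenetic protein signalling and by inflammation through interleukin-6 and STAT3. The acute phase genes encode plasma proteins of the liver whose output changes during inflammation, and in the pig haptoglobin (HP), C-reactive protein (CRP) and ITIH4, known as pig major acute phase protein, are among those that rise. TFRC takes up transferrin-bound iron, FTH1 is the heavy subunit of the iron store ferritin, and FECH inserts iron into protoporphyrin to make heme.

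RNA-Seq read counts were available for 20 samples with 1 library each, in 4 groups of 5: testis and liver from boars with low androstenone and from boars with high androstenone, a testicular steroid that causes boar taint. The labels give an age of 116 days, which the study's methods describe as an average, and all animals came from the same cross of Duroc with an F2 of Leicoma, German Landrace and Large White origin. The boars were grouped by how much androstenone they carried, and the steroid and other differences between the animals cannot be told apart. Replicate numbers follow the labels, which do not say that equal numbers mark the same boar or litter. By the study's methods both tissues came from the same 10 boars, but which testis and which liver share a boar is not in the labels.

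The libraries held 5796973 to 26783002 counts in liver and 6161397 to 15975386 counts in testis, and the deepest library was replicate 3 of the high androstenone livers. Levels are given as CPM, read counts scaled to a common library total, after TMM scaling within a tissue. At these depths 3 counts, the limit that a count of 0 allows, corresponded to between 0.112 and 0.518 CPM in liver. In testis they corresponded to between 0.188 and 0.487 CPM. These limits cover counting error only and use total counts without TMM scaling, so they differ somewhat in scale from the levels. The tissue labels fitted the markers. The hepatocyte gene ALB ranged from 56149 to 159518 CPM in liver and from 0.706 to 43.7 CPM in testis, while the Leydig cell gene INSL3 ranged from 820 to 4156 CPM in testis and stayed at or below 2.71 CPM in liver. The spermatid gene TNP1 was at or above 481 CPM in testis and at or below 2.09 CPM in liver. Both liver maxima were in replicate 1 of the low group, from 39 INSL3 and 30 TNP1 counts. The next highest livers had 0.539 CPM of INSL3 and 1.37 CPM of TNP1. The source of these counts was not tested.

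HAMP was high in 3 livers and at or near the counting limit in the other 7. The 5 low androstenone livers held 0, 5, 0, 0 and 8 HAMP counts, in order of replicates 1 to 5. The 5 high androstenone livers held 144, 206, 14, 533 and 1 counts. On the CPM scale the low group had 0, 0.249, 0, 0 and 0.638 CPM, and the high group had 9.69, 31.4, 0.704, 91.3 and 0.141 CPM. Replicates 1, 2 and 4 of the high group therefore stood apart from every other liver, the nearest of which was replicate 3 of the high group at 0.704 CPM. The deepest liver library was thus among those with little HAMP, and the shallowest, replicate 4 of the high group, had the most.

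The HAMP mean was 26.6 ± 38.3 CPM (SD, n = 5) in the high androstenone livers and 0.177 ± 0.279 CPM (SD, n = 5) in the low androstenone livers. Replicate 4 alone supplied 68.5% of the summed HAMP level of the high group, and replicates 1, 2 and 4 together supplied 99.4%. Without replicate 4 the mean of the high group was 10.5 CPM. The groups overlapped, because replicate 5 of the high group, at 0.141 CPM, lay below 2 low androstenone livers. The fitted log2 fold change of HAMP, given as a description, was 6.98 and lay between 5.64 and 8.02 when single livers were left out. It was lowest without replicate 4 of the high group and highest without replicate 5 of the low group. This fold rests on 13 counts in the low group and depends on the prior count of the fit. Across the whole liver table, 0 of 15855 IDs (0%) were called, at an adjusted p below 0.05 and a fold of at least 1.5 in edgeR, with 465 IDs at an unadjusted p under 0.05, and DESeq2 called 7 IDs.

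**Figure D1:**
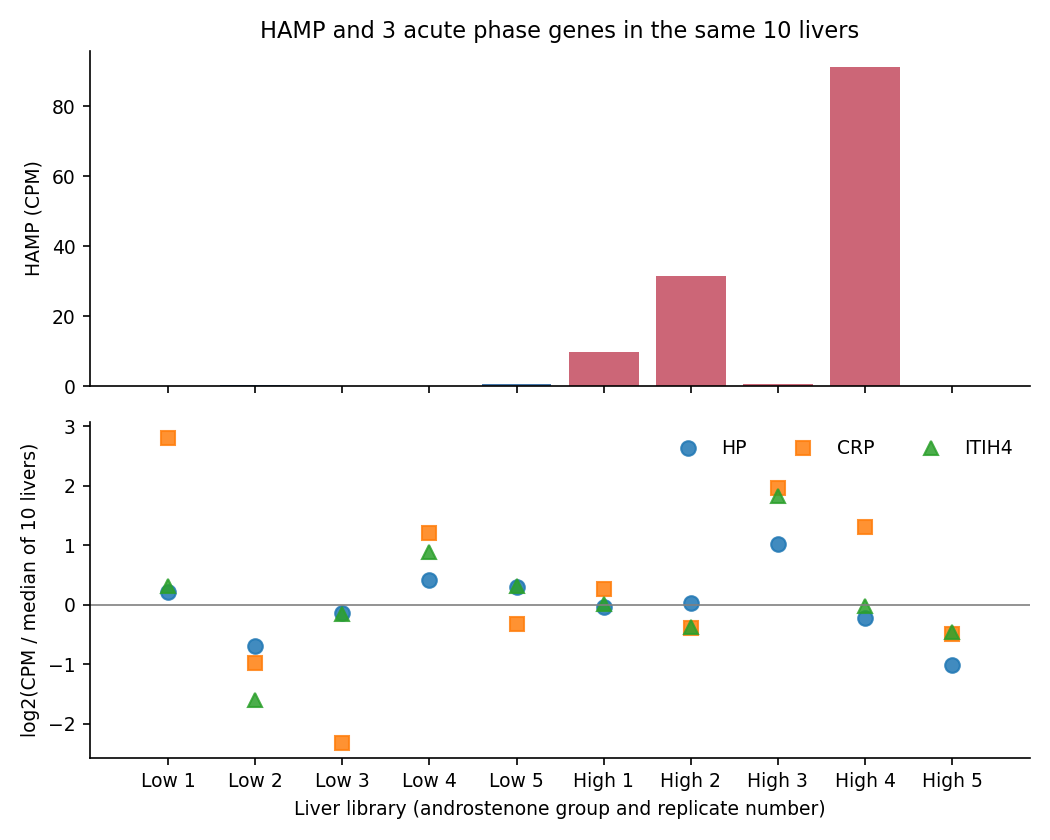
The upper panel shows HAMP in CPM as a bar for each of the 10 livers (blue, low androstenone; red, high androstenone), and the lower panel shows HP, CRP and ITIH4 in the same livers as log2 of the CPM over the median of the 10 livers. None of the 3 livers with HAMP between 9.69 and 91.3 CPM had the highest level of HP, CRP or ITIH4. The highest liver was replicate 3 of the high group for HP and ITIH4 and replicate 1 of the low group for CRP.

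In testis HAMP was almost absent. It had 2 counts in replicate 4 of the low group, 1 count in replicate 1 of the high group and 0 counts in the other 8 testes, so it fell below the filter of 10 summed counts and was not tested there. The 10 livers held 911 HAMP counts and the 10 testes 3. In bulk samples, fewer cells that express a gene and less RNA per cell cannot be told apart.

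The acute phase genes did not differ detectably between the androstenone groups in liver. HP was among the most abundant transcripts and took between 1.97% and 5.50% of all counts of a liver. Its levels were 40458, 21619, 31539, 46639 and 42883 CPM in the low group and 34110, 35783, 70952, 29979 and 17262 CPM in the high group. The high group thus held both the highest liver (replicate 3) and the lowest (replicate 5), and the low group lay between them. The means were 36628 ± 10065 CPM and 37617 ± 19997 CPM (SD, n = 5 each), with a log2 fold change of 0.04 ± 0.43 (SE) and an adjusted p of 0.9999 by edgeR. The 95% interval of the HP log2 fold change ran from -0.80 to 0.88.

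CRP varied the most of the acute phase members. It stood at 651, 47.0, 18.5, 213 and 74.3 CPM in the low androstenone livers and at 111, 71.0, 362, 229 and 65.7 CPM in the high androstenone livers. The highest and the lowest value both came from the low group, and replicate 1 supplied 64.9% of that group's sum. That liver, with the most CRP of the 10, had 0 HAMP counts. The log2 fold change was -0.26 ± 0.77 (SE), with an adjusted p of 0.9999 by edgeR and a 95% interval of -1.76 to 1.24, and it was 0.94 without replicate 1 of the low group.

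ITIH4 was measured at 3630, 961, 2598, 5378 and 3616 CPM in the low group and at 2944, 2243, 10312, 2877 and 2118 CPM in the high group. Replicate 3 of the high group was the highest of the 10 livers and stood apart from the other 4 of its group, which spanned 2118 to 2944 CPM. The log2 fold change was 0.34 ± 0.52 (SE), with an adjusted p of 0.9999 by edgeR and a 95% interval of -0.68 to 1.36, and it turned to -0.35 without that replicate. The same liver was also the highest for HP and FTH1. It had the highest summed level of the 10 red cell IDs, 10123 CPM against 938 to 7673 CPM in the other livers. Most of these IDs are near-identical HBA2 records. HBB was at 2417 CPM in that liver, beside 2353 and 2330 CPM in replicates 1 and 2 of the high group. HBD was at 429 CPM there, below the 499 and 451 CPM of replicates 1 and 2. The part of depth or blood content in these values was not tested.

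The livers with HAMP can be read against HP, ITIH4 and CRP one by one, and other acute phase genes are described below. Replicate 4 of the high group, first of 10 livers for HAMP, ranked 8 for HP, 6 for ITIH4 and 3 for CRP, counted from the highest. Replicate 2 of the high group, second for HAMP, ranked 5 for HP, 8 for ITIH4 and 7 for CRP. Replicate 1 of the high group ranked 3 for HAMP, 6 for HP, 5 for ITIH4 and 5 for CRP. No pooled correlation with HAMP was computed because its levels fell into separate sets of livers.

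Livers with more HP had more ITIH4. Over the 10 livers, HP and ITIH4 had a Pearson r of 0.87 on log2(CPM + 0.5) (permutation p = 0.00321) and a Spearman rho of 0.89 (permutation p = 0.00115). Without the 2 livers farthest from the HP median r was 0.93. The relation did not pass the correction over all 68658 relations computed in liver, where its adjusted p was 0.0755 for r and 0.0760 for rho. CRP had an r of 0.61 with ITIH4 (permutation p = 0.0563, adjusted 0.274) and a rho of 0.79 (permutation p = 0.00928, adjusted 0.165). CRP and HP had an r of 0.55 (permutation p = 0.103, adjusted 0.362) and a rho of 0.60 (permutation p = 0.0756, adjusted 0.380). Without the 2 livers farthest from the median of the first-named gene of each pair, r was 0.85 for CRP with ITIH4 and 0.71 for CRP with HP. For HP and ITIH4, values centred on the group mean gave an r of 0.89, and r stayed between 0.77 and 0.96 when single livers were left out. These relations were computed after the levels of HAMP had been seen. They were not particular to the acute phase genes. At an unadjusted permutation p under 0.05, HP was related to 2006 and ITIH4 to 1667 of the 11443 liver IDs compared with each. RABGGTA, which is not on the acute phase lists, had an r of 0.93 with HP and 0.92 with ITIH4.

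**Figure D2:**
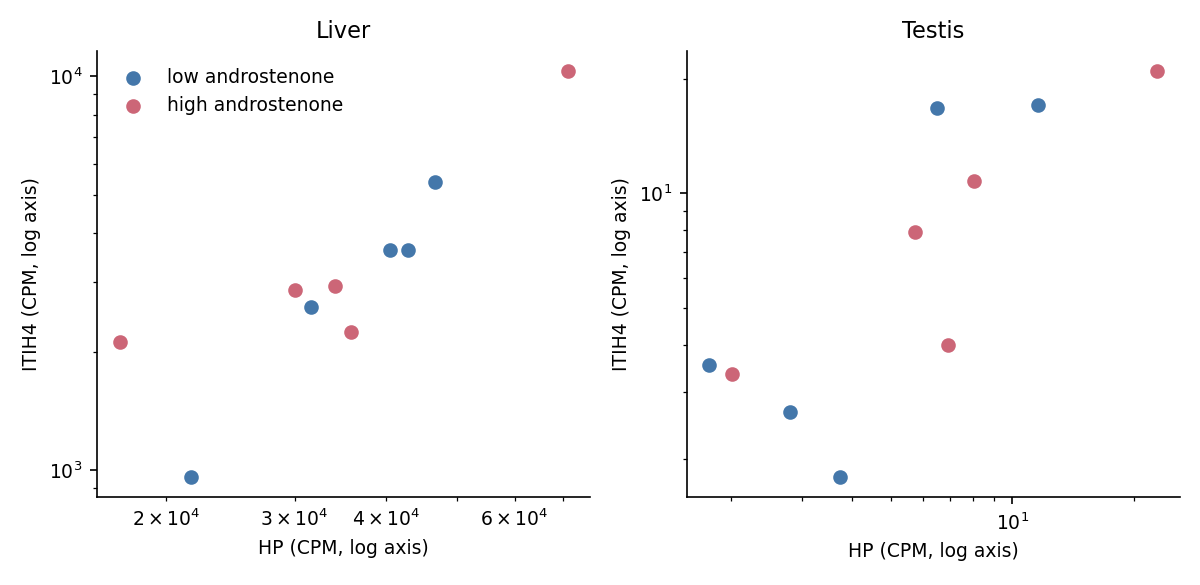
HP is plotted against ITIH4 in CPM on log axes, 1 point for each library, in liver (left) and testis (right), with low androstenone in blue and high androstenone in red. Libraries with more HP had more ITIH4 in both tissues, with an r of 0.87 in liver and 0.82 in testis.

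Among the iron genes, TFRC had the lower mean in the high androstenone livers, but the groups overlapped. Its levels were 29.5, 39.8, 15.1, 12.7 and 46.4 CPM in the low group and 6.87, 33.8, 21.3, 9.07 and 16.6 CPM in the high group. The lowest TFRC values were those of replicates 1 and 4 of the high group, which are among the livers with HAMP, whereas replicate 2, also with HAMP, had the highest TFRC of its group. The means were 28.7 ± 14.8 CPM and 17.5 ± 10.8 CPM (SD, n = 5 each), the log2 fold change was -0.72 ± 0.45 (SE), and edgeR gave an adjusted p of 0.9999. Its 95% interval was -1.60 to 0.17.

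FTH1 did not differ detectably between the groups of livers. It was at 5875, 8193, 7101, 5185 and 11355 CPM in the low group and at 6708, 6707, 14743, 3499 and 4542 CPM in the high group. The highest and the 2 lowest livers were all of the high group, the lowest being replicate 4, the liver with the most HAMP. The log2 fold change was -0.06 ± 0.42 (SE), with an adjusted p of 0.9999 by edgeR. Ferritin heavy chain has processed copies in mammalian genomes, and since the treatment of reads that fit several references is not given in the sources used here, its counts are uncertain to that extent.

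FECH was low in most livers and spread widely. The low group had 3.96, 3.34, 9.81, 6.85 and 17.5 CPM, and the high group had 4.17, 16.7, 14.6, 1.71 and 4.51 CPM. The value of 1.71 CPM rests on 10 counts, and it belongs to the shallow replicate 4. The log2 fold change was 0.02 ± 0.57 (SE), with an adjusted p of 0.9999 by edgeR. FECH had an r of 0.71 with FTH1 over the livers (permutation p = 0.0195, adjusted 0.168), but a rho of 0.52 (permutation p = 0.134), and r was 0.47 without the 2 livers farthest from the FTH1 median. FECH was also correlated, at an unadjusted permutation p under 0.05, with 5258 of the 11443 liver IDs compared, against 3010 for FTH1, 2006 for HP and 206 for CRP. Whether library quality has a part in this was not tested.

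**Figure D3:**
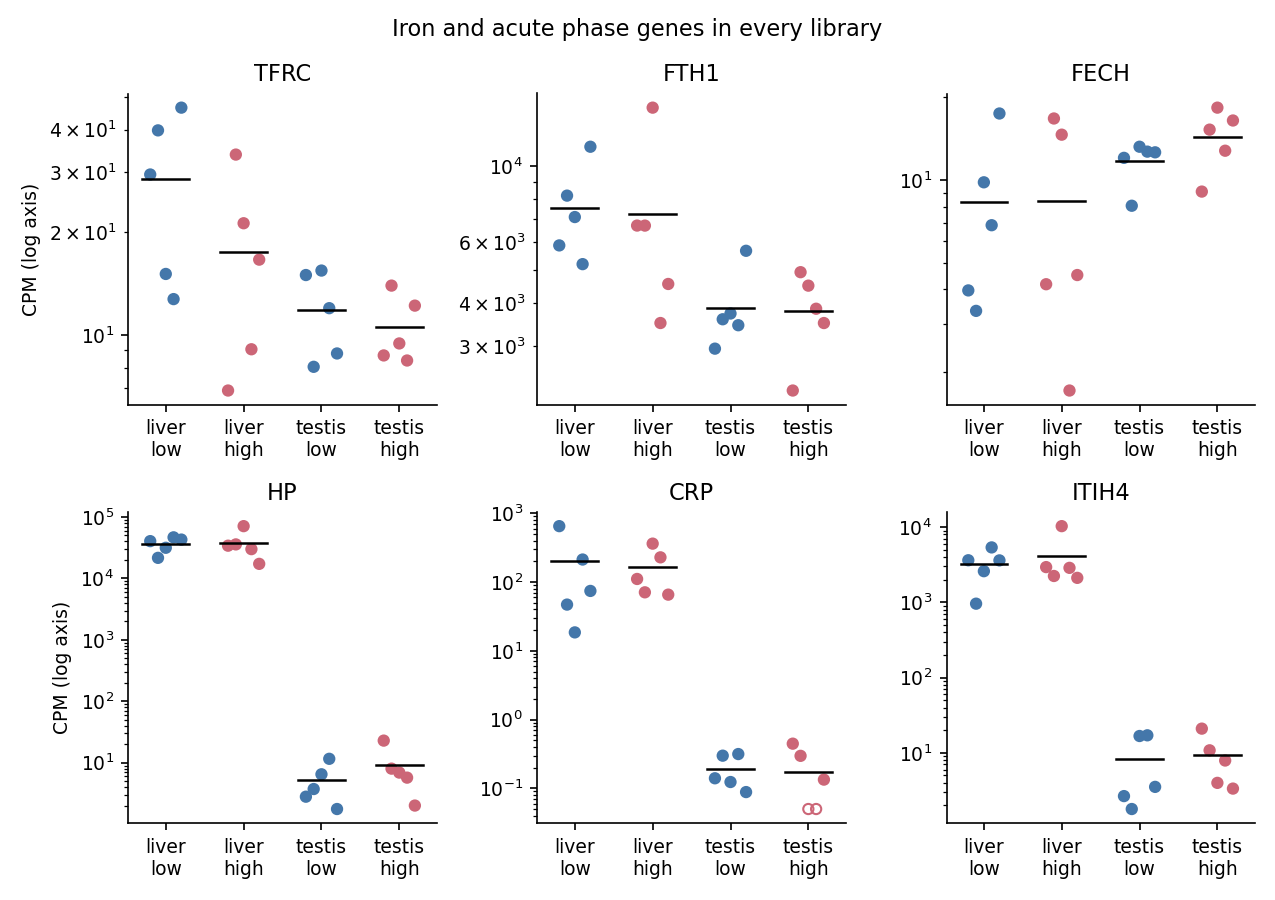
Each panel shows 1 gene in CPM on a log axis for the 5 libraries of each group (blue, low androstenone; red, high androstenone; black line, group mean). The groups of each tissue overlap for all 6 genes, HP, CRP and ITIH4 lie far higher in liver than in testis, and 2 open points mark testes with 0 CRP counts, placed at an arbitrary height.

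In testis none of the 6 tested members differed between high and low androstenone, and 0 of 18340 IDs (0%) were called in that tissue by edgeR, with 1741 at an unadjusted p under 0.05 and 120 called by DESeq2. HP had 2.80, 3.73, 6.49, 11.6 and 1.76 CPM in the low group and 22.9, 8.01, 6.91, 5.72 and 2.01 CPM in the high group. Replicate 1 of the high group was the highest and supplied 50.3% of its group's sum. The HP log2 fold change of 0.79 ± 0.54 (SE) had an adjusted p of 0.662 by edgeR and fell to 0.11 when that testis was left out.

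ITIH4 in testis was 2.66, 1.79, 16.7, 17.1 and 3.53 CPM in the low group and 21.0, 10.8, 3.99, 7.91 and 3.35 CPM in the high group, with a log2 fold change of 0.16 ± 0.59 (SE) and an adjusted p of 0.952 by edgeR. HP and ITIH4 again varied together, with an r of 0.82 (permutation p = 0.00398) and a rho of 0.82 (permutation p = 0.00567), although the adjusted p over all 71745 testis relations was 0.334. Without the 2 testes farthest from the HP median r was 0.78. ALB, the albumin gene, was also highest in replicate 1 of the high group, at 43.7 CPM, and lowest in replicate 5 of the low group, at 0.706 CPM. The ratio of HP to ITIH4 counts was 0.387 to 2.08 in the testes and 6.88 to 22.5 in the livers, so its ranges in the tissues did not overlap. HP counts per ALB count were 0.456 to 2.50 in testis and 0.221 to 0.831 in liver.

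CRP was close to the counting limit in testis, with 1, 2, 2, 4 and 1 counts in the low group and 6, 5, 0, 0 and 1 counts in the high group, and a log2 fold change of 0.21 ± 0.70 (SE) with an adjusted p of 0.943 by edgeR. TFRC was at 14.98, 8.06, 15.4, 11.98 and 8.82 CPM in the low group and at 8.70, 13.9, 9.44, 8.41 and 12.2 CPM in the high group. FTH1 was at 2949, 3588, 3729, 3448 and 5668 CPM in the low group and at 2229, 4914, 4491, 3849 and 3499 CPM in the high group. FECH, the heme-forming enzyme, had all but 1 of its low group testes between 12.04 and 13.2 CPM. It was at 12.04, 8.06, 13.2, 12.7 and 12.6 CPM in the low group and at 9.08, 15.3, 18.3, 12.8 and 16.5 CPM in the high group. The groups overlapped for each of these genes. The log2 fold changes of TFRC, FTH1 and FECH were -0.17 ± 0.23, -0.03 ± 0.24 and 0.29 ± 0.21 (SE), with adjusted p-values of 0.831, 0.978 and 0.687 by edgeR. These genes varied less between testes than between livers, with a CV of 25.6% against 58.7% for TFRC and 23.8% against 71.5% for FECH, a difference that was not tested.

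**Figure D4:**
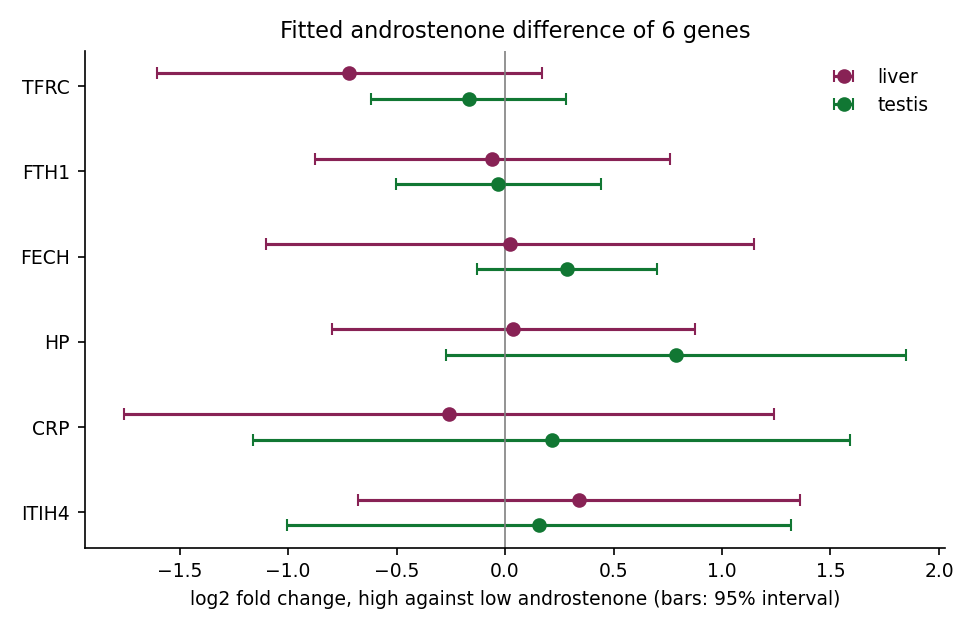
Points show the fitted log2 fold change between high and low androstenone for 6 genes in liver (purple) and testis (green), and bars show the 95% interval. Every bar crosses 0, and the liver intervals are wider than those of testis for TFRC, FTH1 and FECH.

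The androstenone contrast was also compared between the tissues in 1 fit, which treats the 20 samples as separate animals although they came from 10 boars, as does the comparison of liver with testis. None of the 6 tested members had a liver contrast that differed from the testis contrast, the adjusted p being 1.00 for each by edgeR, and 0 of 19065 IDs (0%) passed. The HP contrast was lower in liver by 0.82 ± 0.78 (SE) on the log2 scale, and that of TFRC was lower by 0.66 ± 0.54.

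Between the tissues themselves the members differed strongly. With all 20 samples scaled together, 14436 of 19065 IDs (75.7%) were called by edgeR, and 6143 (32.2%) were higher in liver. The acute phase genes showed the widest gaps, with log2 fold changes of liver over testis of 13.36 ± 0.64 (SE) for HP, 10.72 ± 0.74 for CRP and 9.65 ± 0.63 for ITIH4, and adjusted p-values by edgeR of 5.91e-16, 1.02e-12 and 3.21e-13. TFRC and FTH1 were higher in liver by log2 fold changes of 1.99 ± 0.28 (SE) and 1.94 ± 0.28, with adjusted p-values by edgeR of 4.87e-07 and 9.81e-07. FECH did not pass the test, with a log2 fold change of 0.34 ± 0.32 (SE) and an adjusted p of 0.340 by edgeR. Of the 6 members tested between tissues, 5 were therefore called higher in liver. The sizes of these fold changes depend on how the tissues are scaled to each other. With CPM scaled within each tissue, TFRC had means of 23.1 CPM in liver and 11.2 CPM in testis, and FTH1 of 7391 and 3836 CPM. FECH then had the lower mean in liver, 8.32 CPM against 13.1 CPM, opposite in direction to its fitted value.

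The wider pathways were read through 6 gene lists, which together held 69 reference IDs besides HAMP. In liver 67 of them were tested and 0 were called, with 2 higher and 2 lower at an unadjusted p under 0.05, or 5.97% of the IDs, beside 2.93% of all liver IDs. In testis 61 were tested and 0 were called, with 0 higher and 4 lower at that level, or 6.56% beside 9.49% of all testis IDs. The lists overlap and were not fixed independently of earlier results.

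Of the iron handling list, 12 IDs were tested in liver, 4 with a positive and 8 with a negative log2 fold change, and the median was -0.10 against 0.01 over all liver IDs. SLC39A14, a zinc and iron importer, had a log2 fold change of 0.58 ± 0.48 (SE), which lay between 0.20 and 0.98 when single livers were left out. On the negative side stood TFRC, given above, and IREB2, an iron-sensing regulator of ferritin and transferrin receptor mRNA, at -0.24 ± 0.24. None of these passed the test.

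The hepcidin control list, which holds bone morphogenetic protein and STAT3 pathway genes, had 14 IDs tested in liver with a median log2 fold change of -0.19. HNF4A, a transcription factor of hepatocyte identity, was at 19.1, 17.5, 21.7, 21.1 and 23.4 CPM in the low group and at 17.4, 15.8, 11.96, 13.9 and 13.2 CPM in the high group. The groups did not overlap, although the nearest livers were 17.5 and 17.4 CPM. Its log2 fold change was -0.50 ± 0.23 (SE) with an unadjusted p of 0.0438 and an adjusted p of 0.9999 by edgeR. The hepcidin inducer BMP6 stayed at or below 0.685 CPM in all livers, with 20 counts over the 10. The other extremes of the list were SMAD9 at 0.54 ± 0.65 (SE) and SMAD4 at 0.40 ± 0.27, both signal carriers downstream of bone morphogenetic proteins. SMAD9 stayed at or below 1.35 CPM, with 75 counts over the 10 livers, which is near the counting limit in several of them.

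Of the heme synthesis list, 5 IDs were tested in liver, with a median log2 fold change of -0.12. ALAS1, the rate-limiting enzyme of heme synthesis in liver, was counted on a single non-coding reference record and stood at 131, 224, 289, 324 and 159 CPM in the low group. In the high group it was at 123, 89.5, 123, 44.3 and 121 CPM, so every high androstenone liver lay below every low androstenone liver. The means were 226 ± 82.4 CPM and 100.1 ± 34.2 CPM (SD, n = 5 each), with a log2 fold change of -1.17 ± 0.35 (SE). The unadjusted p was 0.00443 and the adjusted p 0.9999 by edgeR, so it was not called. Its log2 fold change stayed between -1.31 and -0.98 when single livers were left out. Groups without overlap were found for 2 of the 67 list IDs in liver, ALAS1 and HNF4A, and for 80 of all 15855 liver IDs (0.505%). BLVRA, which reduces the heme breakdown product biliverdin, was at -0.30 ± 0.32 (SE), and FECH is given above.

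**Figure D5:**
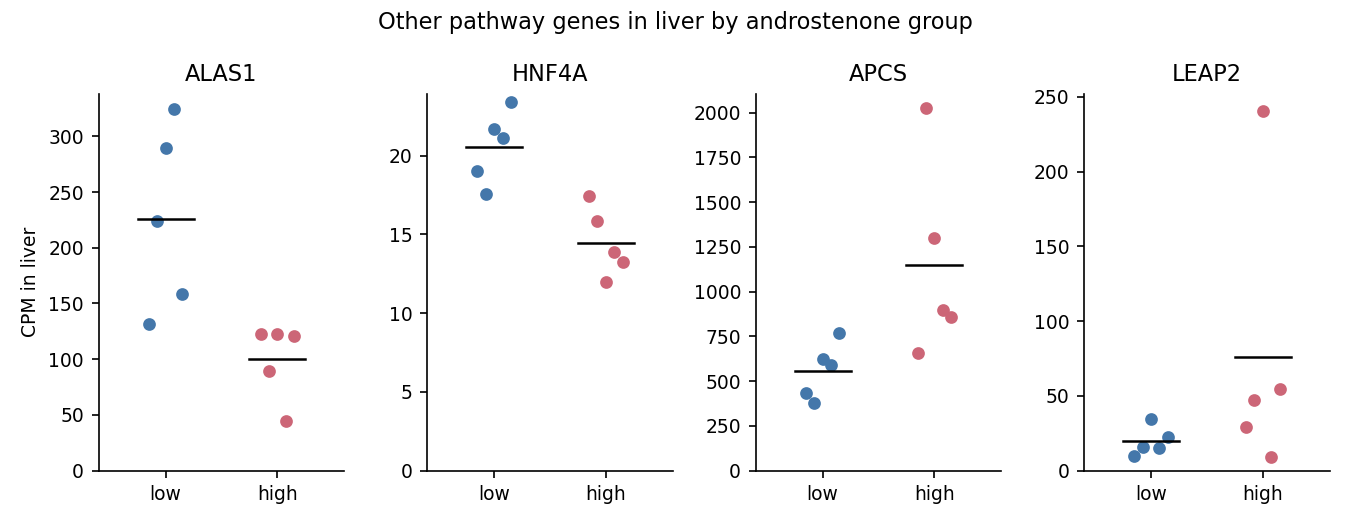
CPM of ALAS1, HNF4A, APCS and LEAP2 in each of the 10 livers, with a black line at the group mean and axes that start at 0 (blue, low androstenone; red, high androstenone). ALAS1 and HNF4A do not overlap between the groups, and the high mean of LEAP2 comes from 1 liver at 241 CPM.

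The list drawn up for genes that rise in the acute phase had 17 IDs tested in liver besides HAMP. Of these, 9 had a positive and 8 a negative log2 fold change, with a median of 0.04. Whether each of them, APCS and LEAP2 included, rises in the acute phase of the pig was not tested. APCS, which encodes serum amyloid P, was at 435, 376, 622, 590 and 767 CPM in the low group and at 658, 2024, 1298, 900 and 861 CPM in the high group, where only replicate 1 lay within the range of the low group. Its log2 fold change was 1.04 ± 0.35 (SE), with an unadjusted p of 0.0105 and an adjusted p of 0.9999 by edgeR. LEAP2, a liver-expressed antimicrobial peptide found in a search for hepcidin-like peptides, was at 9.94, 15.8, 34.3, 15.2 and 22.6 CPM in the low group and at 29.1, 47.4, 241, 9.25 and 54.8 CPM in the high group. Its highest value was in replicate 3, which had little HAMP, and its lowest in replicate 4, which had the most. The LEAP2 log2 fold change was 1.97 ± 0.66 (SE), with an adjusted p of 0.9999 by edgeR, and it was 0.85 without replicate 3 of the high group. The study, which used DESeq, listed LEAP2 among its differentially expressed liver genes. On the negative side stood SAA3, a serum amyloid A gene, at -0.57 ± 0.46 (SE) and MBL1, a mannose-binding lectin, at -0.53 ± 0.32. Neither passed the test. APCS, C4BPA and CD14 were highest in replicate 2 of the high group, second for HAMP, at 2024, 278 and 383 CPM. SERPINA1, SERPINA3-2, C3, CFB, HPX, SAA3, MBL1 and LEAP2 were highest in livers with little or no HAMP, as were HP, CRP and ITIH4. S100A8, S100A9 and S100A12 were near the counting limit.

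All 8 tested IDs of the list of genes that fall in the acute phase had a negative log2 fold change in liver. Their median was -0.21, with 0 at an unadjusted p under 0.05, beside 51.7% of all liver IDs with a positive value. ALB, TF, APOA1 and SERPINA6 turned positive, up to 0.13, 0.07, 0.15 and 0.17, when single livers were left out. The 8 IDs were measured in the same livers, so their signs are not independent of each other. The most negative were the thyroxine carrier SERPINA7 at -0.49 ± 0.33 (SE) and the cortisol carrier SERPINA6 at -0.35 ± 0.43. In testis 6 of the 8 were positive, with a median of 0.08.

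The cytokine signalling list had 19 IDs tested in liver, with a median of -0.08 and 0 at an unadjusted p under 0.05. IL6, the main inducer of hepcidin in inflammation, was at or below 0.558 CPM in all livers, with 24 counts over the 10, which is near the counting limit. The largest values were 1.11 ± 0.59 (SE) for IL10, also at few counts, and 0.86 ± 0.60 for the transcription factor subunit JUN, which was 1.69 without replicate 1 of the low group and 0.34 without replicate 4 of the high group.

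In testis the 4 list IDs at an unadjusted p under 0.05 were all lower in the high group, and they are named here after their values were seen. SERPINA3-2, a serine protease inhibitor of the acute phase list, ranged from 3.79 to 9.55 CPM in the low group and from 2.14 to 3.44 CPM in the high group, with a log2 fold change of -1.10 ± 0.28 (SE) and an adjusted p of 0.329 by edgeR. NFKB1, a subunit of the inflammatory factor NF-kappa-B, ranged from 7.50 to 13.9 CPM and from 5.73 to 6.65 CPM, with a log2 fold change of -0.60 ± 0.20 (SE) and an adjusted p of 0.408. Its inhibitor NFKBIA and the repressor ID2 had log2 fold changes of -0.59 ± 0.21 (SE) and -0.88 ± 0.34. Groups without overlap were found for 329 of all 18340 testis IDs (1.79%), and none of these genes was called.

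Markers of other cells were measured beside these genes. In liver the summed level of 4 neutrophil markers was 0.216 to 1.89 CPM in the low group and 0.845 to 2.40 CPM in the high group, with the neutrophil enzyme MPO at or below 0.15 CPM. The 2 macrophage markers CD14 and C1QA summed to 286 to 441 CPM and to 358 to 478 CPM, and the 4 lymphocyte markers to 12.8 to 24.9 CPM and to 6.48 to 19.0 CPM. In liver the groups overlapped in each case. The testis sums of the neutrophil and macrophage markers overlapped too. Those of the 4 lymphocyte markers did not, at 6.44 to 10.3 CPM in the low group and 2.66 to 6.17 CPM in the high group. All 4 had a negative log2 fold change in testis, 1 at an unadjusted p under 0.05 by edgeR, and 0 were called. The part of lymphocyte content in the testis values was not tested. In testis all 10 red cell IDs, 7 of them near-identical HBA2 records, were lower in the high group at an unadjusted p under 0.05, with sums of 165 to 1524 CPM in the low group and 73.2 to 226 CPM in the high group, and 0 of them were called. With DESeq, the study listed HBB, HBD, HBM and HBA2 among its differentially expressed testis genes. The part of blood content in the testis values of HP, the hemoglobin-binding protein, was not tested.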

How the data were processed

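The authors sequenced each of the 20 samples as single reads on 1 lane of an Illumina HiSeq instrument. Reads passing CASAVA 1.7 were mapped by BWA to RefSeq mRNAs and UniGene sequences of pig (Sscrofa 9.2). Per reference ID, the authors deposited raw read counts without normalization. Each file had 21785 lines for 21755 IDs, because 10 IDs were listed 4 times, and these were used once. A RefSeq gene table named 6654 IDs by accession without its version, and 6687 had a symbol with the IDs printed by the study. IDs were compared with edgeR 4.0.16 in R 4.3.3: TMM, at least 10 summed counts, the quasi-likelihood test and Benjamini-Hochberg adjustment over all IDs. A call needed a fold of at least 1.5 and an adjusted p below 0.05. SE is the absolute log2 fold change over the square root of F, and 95% intervals use the normal quantile. Correlations used IDs with a mean of at least 1 CPM, log2(CPM + 0.5) and 100000 permutations (exact with fewer than 10 samples). Scripts were tested on simulated data.

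Members and gene lists were chosen with earlier results of these data known. The members were given in every sample, and for each list the 2 largest log2 fold changes in each direction in liver. By the study's methods each group was 5 boars, so p-values within a tissue measure the spread between boars. DESeq2 1.42.0, RLE, other filters, summed IDs, robust dispersion, a joint fit, a replicate block and omission of single samples were the alternatives. A planned search for IDs following HAMP over the livers was not run, because 3 livers stood far above the other 7. Instead the other members were correlated, a choice made after seeing the data. No sequences or coordinates are given, and the results of some genes that this rule names are not reported here.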

Additional observations from a re-analysis of the deposited data

Results flagged for a closer look

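Within groups of 5, the gap between the most extreme sample and its neighbour was compared with the range of the group on log2(CPM + 0.5). Of 62 groups checked, 7 had a ratio over 0.71, and chance gives about 1 in 20. ITIH4 in replicate 3 of the high androstenone livers stood above the other 4 livers, with a ratio of 0.792 at 10312 CPM. FECH in replicate 2 of the low androstenone testes stood below the other 4, with a ratio of 0.810 at 8.06 CPM. HAMP had counts in a single testis of each group, which gave ratios of 1.000 and 1.000 from 2 counts and 1 count. The other 3 concerned low androstenone livers for IREB2 in replicate 2 (0.717 at 35.1 CPM) and JUN in replicate 1 (0.725 at 104 CPM), and the high androstenone livers for BMP6 in replicate 4 (0.724 at 0.685 CPM), which is also the liver with the most HAMP.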

How the results depend on the processing

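Of 41 gene and contrast combinations given above, 32 kept their sign under every alternative run and 9 changed it, and 0 changed their call. HAMP is not among them, since its sign in liver was fixed by how it was chosen. The list genes named in testis, the red cell and lymphocyte IDs, and ALB, TF and APOA1 in liver are not among them either. The 0 changed calls therefore do not cover those. For the difference of contrasts and for liver against testis, DESeq2 and omission of single samples were not run. Those contrasts therefore had fewer chances to change sign. Scaling within each tissue, which gave FECH the opposite direction between tissues, was not among the alternatives. DESeq2 called 7 IDs in liver and 120 in testis against 0 and 0. Leaving out single samples gave 0 to 0 calls in liver and 0 to 2 in testis, the 2 arising without replicate 5 of the low group. With a replicate block, 0, 0 and 14201 IDs were called in liver, in testis and between tissues. Labels share numbers between groups but do not call them pairs, so the numbers were not taken as pairing. Deviations correlated over 0.1 in 2 of 5 liver pairs, 3 of 5 testis pairs and 5 of 10 liver and testis pairs. Tissues of the same boar need not deviate together, so this cannot decide whether equal numbers mark the same boar.

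The changes of sign among these combinations were as follows. With a replicate block the log2 fold changes were -0.14 (FECH), -0.0615 (HP) and 0.29 (CRP) in liver and -0.17 (CRP) in testis, and with all 20 samples in 1 fit -0.0005 (FECH) and -0.0035 (HP). Leaving out single samples gave ranges of -0.49 to 0.14 for FTH1, -0.37 to 0.50 for FECH, -0.32 to 0.23 for HP, -0.75 to 0.94 for CRP, -0.35 to 0.60 for ITIH4 and -0.54 to 0.17 for SERPINA6 in liver. In testis they were -0.14 to 0.17 for FTH1, -0.30 to 0.52 for CRP and -0.37 to 0.57 for ITIH4. The cause was not tested. The search for IDs following HAMP, with its alternatives, was not run. Depth limits HAMP, IL6, BMP6 and SMAD9 in liver and CRP and HAMP in testis, which lie near 3 counts in many libraries.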
